A study of Mus musculus with 7 samples.

Results

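In the E14.5 mouse testis, none of 10 genes for the ligands and receptors that pass between somatic cells and gonocytes, the fetal male germ cells, passed the adjusted test between wild-type and Glis3 mutant libraries. The gene closest to it was Cxcl12, the chemokine ligand, which averaged 131 ± 15.7 FPKM in wild-type and 174 ± 24.4 FPKM in mutant testes (SD, n = 3 and n = 4). It was the only one of the 10 whose groups did not overlap. Over all 13988 genes tested, 1 passed the adjusted test. Every mutant library lay above every wild-type library for 7.31% of them and below for 7.59%. Ret, the kinase of the GDNF receptor complex, differed most between wild-type libraries, over a 10.5-fold range at low levels, from 0.134 to 1.40 FPKM. FPKM are fragments scaled by transcript length and library size, so levels of different genes can be compared per length.

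The 10 genes are the rows with the symbols Gdnf, Gfra1, Ret, Kitl, Kit, Cxcl12, Cxcr4, Fgf9, Fgfr2 and Fgfr3, taken from a table of 24739 genes. They were chosen by name, 4 as ligands and 6 as receptors, and form 6 ligand and receptor pairs. All 10 averaged at least 0.5 FPKM across libraries, the filter on low values, which kept 13988 genes. Ret, at a mean of 0.594 FPKM, passed this filter only through the wild-type group. Its mean was 0.818 FPKM in wild-type and 0.427 FPKM in mutant libraries. The libraries are whole testes from embryos on a C57BL/6 background, each from 1 pair of testes of 1 embryo, with 3 labelled wild-type and 4 labelled Glis3 mutant. The mutant embryos are homozygous for the global Glis3 zf5 allele, a deletion of an exon and parts of the neighbouring introns that disrupts DNA binding by GLIS3, a zinc finger transcription factor. The deletion is not restricted to a cell type, so germ cells and somatic cells carry it alike.

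Gonocytes lie inside testis cords, among Sertoli cells, and depend on signals from these and from the interstitial cells around the cords. GDNF from somatic cells binds GFRA1, which has no kinase of its own, and the pair activates the receptor tyrosine kinase RET, a route best known from spermatogonial stem cells after birth. KIT ligand, encoded by Kitl, acts on the kinase KIT, and CXCL12 on the G protein-coupled receptor CXCR4, and both routes guide and sustain primordial germ cells. FGF9 signals through FGFR2 in Sertoli cells, where it supports testis fate, and through FGF receptors on germ cells.

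Glis3 was at 7.63, 6.89 and 2.91 FPKM in wild-type replicates 1 to 3, and between 2.66 and 3.86 FPKM in the mutant libraries. The library labelled wild-type replicate 3 thus lay within the mutant range, although a transcript that lacks the deleted exon still yields FPKM. Log2 fold changes of the ligand and receptor genes, and the changes of their pairs, are therefore given with and without this library. Reads from introns are given both ways for Ret and Kit only. Sums and fold changes of marker genes, and values of other pathway genes, are given with all 7 libraries only. Markers of germ cells, Sertoli cells, fetal Leydig cells, interstitial cells, endothelium and macrophages were above 0 in all 7 libraries, as the labelled tissue requires. Germ cell markers, 18 genes in all, summed to between 654 and 1540 FPKM in wild-type and 525 to 723 FPKM in mutant libraries. Their mean log2 level was 3.52 in wild-type replicate 3, within the mutant range of 3.14 to 3.55. It was 4.78 and 4.56 in wild-type replicates 1 and 2. The mutant mean was lower for all 18 (median log2 fold change -0.92), and for 6694 of all 13988 genes tested. Of the 18, 15 were lower at an unadjusted limma p under 0.05, against 8.79% of all genes. For 6 the highest mutant value was below the lowest wild-type value, against 7.59% of all genes. In whole testes, fewer cells of a type and less RNA per cell cannot be told apart.

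Among all genes tested, 1 passed an adjusted limma p of 0.05, which is 0.00715% of them. Unadjusted p was under 0.05 for 17% of genes, and every mutant library lay above every wild-type library for 7.31% and below for 7.59%. Of the 10 niche genes, 0 passed the adjusted test and 1, Cxcl12, had an unadjusted p under 0.05. The mutant mean on the log2 scale was above the wild-type mean for 6 of the 10, with a median log2 fold change of 0.14 against 0.008 over all genes tested. The 4 ligands had a median of 0.15, with 3 above and 1 below, and the 6 receptors a median of 0.037, with 3 above and 3 below. These shares lie near the background of all genes. The plot of levels by library shows all of these values.

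**Figure D1:**
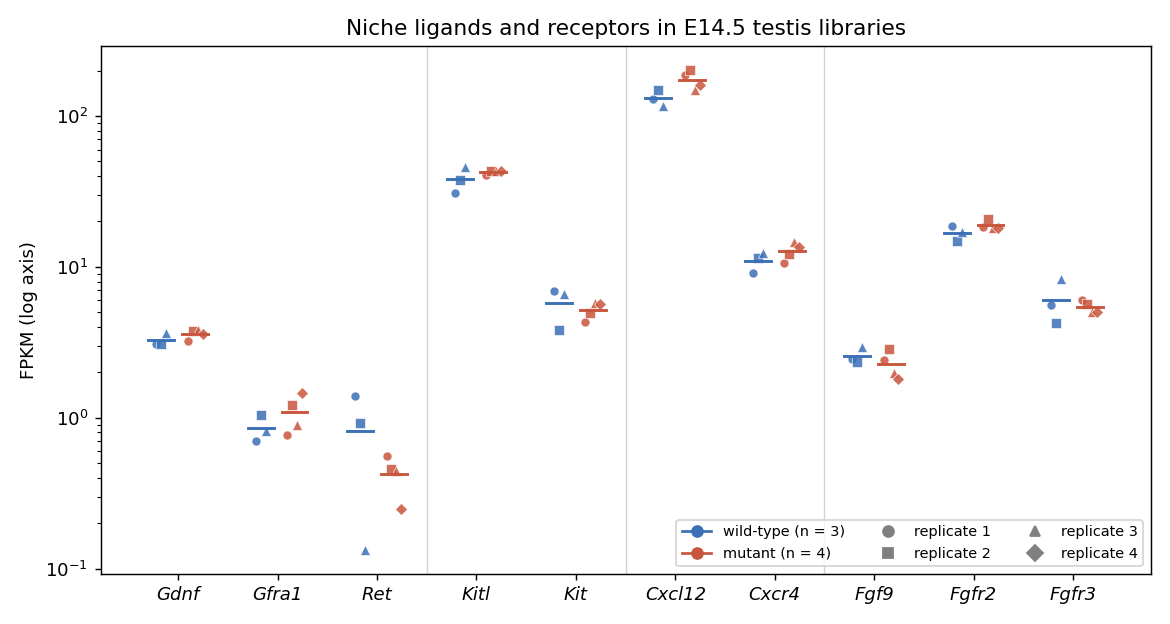
FPKM of each gene in each library, on a log axis, with blue points for 3 wild-type and red points for 4 mutant libraries, symbol shape for the replicate number and a bar for the group mean. Cxcl12 is the highest in both groups and the only gene whose groups do not overlap, and wild-type Ret spreads from 0.134 to 1.40 FPKM.

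In both groups the order of the group means was Cxcl12, Kitl, Fgfr2, Cxcr4, Fgfr3, Kit, Gdnf, Fgf9, Gfra1 and Ret. Ranges of neighbours in this order were separate within each group, except that Fgfr3 overlapped Kit in both groups and Gfra1 overlapped Ret in wild-type. Cxcl12 lay at the 96.6th percentile of the mean FPKM of tested genes and Kitl at the 83.4th. The GDNF receptors lay at the low end, Gfra1 at the 8.4th and Ret at the 1.8th percentile. Ligand RNA was therefore above receptor RNA per length in the GDNF, KIT ligand and CXCL12 routes and below it in the FGF9 route.

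Gdnf (gene ID 14573, mm10 chr15:7810048-7837580, plus strand) encodes the ligand. Its FPKM were 3.11, 3.07 and 3.64 in wild-type replicates 1 to 3 and 3.23, 3.73, 3.80 and 3.58 in mutant replicates 1 to 4. The groups overlapped through wild-type replicate 3. Mutant minus wild-type on the log2(FPKM + 0.5) scale, the log2 fold change, was 0.12 ± 0.098 (SE, limma adjusted p = 0.572). Its 95% interval of -0.11 to 0.34 corresponds to 0.929-fold to 1.27-fold. Without wild-type replicate 3 it was 0.18 (adjusted p = 0.331) and every mutant library lay above both others, as did 15.6% of all genes.

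Gfra1 (gene ID 14585, chr19:58235581-58455398, minus strand) encodes the GDNF-binding co-receptor. It was at 0.704, 1.04 and 0.811 FPKM in wild-type and at 0.772, 1.22, 0.899 and 1.46 FPKM in mutant libraries. The 4 mutant values enclosed 2 of the 3 wild-type values, and the highest of the 7 was mutant replicate 4. This gave a log2 fold change of 0.22 ± 0.18 (SE, limma adjusted p = 0.557), with an interval from 0.879-fold to 1.54-fold, and 0.20 without wild-type replicate 3.

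Ret (gene ID 19713, chr6:118151748-118197744, minus strand), the kinase of the receptor complex, had the widest spread. In wild-type libraries it was at 1.40, 0.922 and 0.134 FPKM, and in mutant libraries at 0.559, 0.457, 0.442 and 0.248 FPKM. The highest and the lowest of the 7 values were both wild-type, and the lowest came from the library labelled wild-type replicate 3. Between groups the log2 fold change was -0.38 ± 0.34 (SE, limma adjusted p = 0.597), with an interval from 0.449-fold to 1.32-fold. The mutant mean of 0.427 FPKM lay under the filter of 0.5 FPKM, as did wild-type replicate 3. The log2 fold change rested on single wild-type libraries. It was -0.046 without replicate 1 (limma adjusted p = 0.966), -0.25 without replicate 2 (adjusted p = 0.759) and -0.84 ± 0.19 (SE) without replicate 3 (adjusted p = 0.0519). In the last case Ret was lower in each mutant library than in both remaining wild-type libraries, as were 17.1% of all genes, and 5.15% of all genes passed the adjusted threshold. Ret, Kitl and Cxcl12 were the 3 niche genes with an unadjusted p under 0.05 in that fit, against 23.6% of all genes. Mesonephric and ureteric epithelium also uses Ret, and 9 mesonephric markers summed to 14.7 to 20.7 FPKM in wild-type and 13.2 to 17 FPKM in mutant libraries. Pax2 was at 0.0164 FPKM at most, while Wnt11, Emx2 and Lhx1 reached 9.63, 8.56 and 2.41 FPKM, Lhx1 in wild-type replicate 1. The part of these cells in the Ret level was not tested.

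Kitl (gene ID 17311, chr10:100015824-100100412, plus strand), the ligand of KIT made by Sertoli and other somatic cells, was at 30.9, 37.7 and 45.9 FPKM in wild-type and at 41.0, 43.2, 43.2 and 43.2 FPKM in mutant libraries. The mutant libraries spanned 1.06-fold and the wild-type libraries 1.49-fold, so all mutant values fell inside the wild-type range. Kitl had a log2 fold change of 0.18 ± 0.12 (SE, limma adjusted p = 0.468). It was 0.036 without wild-type replicate 1 (limma adjusted p = 0.887) and 0.32 ± 0.086 without wild-type replicate 3 (limma adjusted p = 0.0777). In the latter case every mutant library lay above both wild-type libraries, as in 15.6% of all genes. The bases before the Kitl start site are shown because this is the second most abundant of the 10 transcripts and its core promoter holds a TATA box. The sequences are from the RefSeq promoter table on GRCm38.p6, the patched form of mm10, in which 9 of the 10 genes were matched, with Ret not matched. Capitals mark TATAAA and GGGCGG, or its complement CCGCCC, searched on both strands.
Kitl (chr10:100015571-100015820, plus strand): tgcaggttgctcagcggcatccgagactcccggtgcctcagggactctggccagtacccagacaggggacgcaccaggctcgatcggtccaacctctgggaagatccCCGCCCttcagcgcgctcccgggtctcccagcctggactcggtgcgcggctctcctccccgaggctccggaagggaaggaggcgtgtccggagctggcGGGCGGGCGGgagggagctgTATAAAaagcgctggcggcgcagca
The TATA box starts 25 bases before the start site, and 2 of the 3 GC boxes overlap each other just upstream of it. TATAAA was present in 13.6% of all 32851 windows of 300 bases and in those of 3 of the 9 genes, Gdnf, Kitl and Cxcr4.

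Kit (gene ID 16590, chr5:75574987-75656721, plus strand) encodes the receptor. It was at 6.91, 3.82 and 6.64 FPKM in wild-type and 4.31, 4.91, 5.77 and 5.70 FPKM in mutant libraries. Wild-type replicate 2 was the lowest library and wild-type replicate 1 the highest, with all 4 mutant libraries between them. Kit had a log2 fold change of -0.12 ± 0.19 (SE, limma adjusted p = 0.79), and it was 0.022 without wild-type replicate 1 and -0.005 without wild-type replicate 3. Mast cells also carry KIT, and 9 mast cell markers summed to 6.93 to 10.9 FPKM in wild-type and 10.5 to 29.3 FPKM in mutant libraries, with 4 of the 9 at 0 in at least 1 library. Most of the wild-type sum was Hdc, at 5.31, 5.99 and 7.12 FPKM. Cma1 was at 7.17 and 9.44 FPKM in mutant replicates 1 and 4, against 0.70 and 1.25 FPKM in mutant replicates 2 and 3. The part of mast cells in the Kit level was not tested.

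Cxcl12 (gene ID 20315, chr6:117168535-117181368, plus strand) was at 129, 148 and 117 FPKM in wild-type and at 186, 202, 148 and 161 FPKM in mutant libraries. Mutant replicate 3, at 148.1, lay just above wild-type replicate 2, at 147.8, so the separation of the groups rests on a narrow margin. The fold change was 1.33, with an interval from 1.09 to 1.61 (log2 fold change 0.41 ± 0.12, SE, limma unadjusted p = 0.00981, adjusted p = 0.193), and the exact two-sided permutation test over libraries gave p = 0.0571, against 0.0286 as the smallest possible. Without wild-type replicate 3 the log2 fold change of Cxcl12 was 0.33 ± 0.13 (limma adjusted p = 0.185). The groups were still apart, as in 15.6% of all genes with the mutant higher. Its promoter is shown because this is the one niche gene whose groups did not overlap. Capitals mark GGGCGG and CCGCCC.
Cxcl12 (chr6:117168285-117168534, plus strand): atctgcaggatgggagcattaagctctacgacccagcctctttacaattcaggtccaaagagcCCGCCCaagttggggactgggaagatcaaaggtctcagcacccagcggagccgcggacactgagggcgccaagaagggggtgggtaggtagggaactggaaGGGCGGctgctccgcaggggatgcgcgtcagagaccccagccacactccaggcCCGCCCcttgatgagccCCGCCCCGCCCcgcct
The 250 bases hold 5 GC boxes, at positions -187, -86, -33, -16 and -11 from the start site, the last 2 of which overlap by 1 base. GGGCGG was found in 35.7% of all windows and in those of 5 of the 9 genes, Cxcl12, Cxcr4, Fgfr3, Kit and Kitl.

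Cxcr4 (gene ID 12767, chr1:128588199-128592299, minus strand), the CXCL12 receptor of migrating germ cells, was at 9.07, 11.5 and 12.3 FPKM in wild-type and at 10.6, 12.1, 14.5 and 13.5 FPKM in mutant libraries. The 2 highest values were mutant and the lowest was wild-type, and the middle of the ranges overlapped. For Cxcr4 the log2 fold change was 0.21 ± 0.13 (SE, limma adjusted p = 0.453), and 0.29 without wild-type replicate 3 (adjusted p = 0.261). Endothelium also carries Cxcr4, and 10 endothelial markers summed to 96.1 to 121 FPKM in wild-type and 105 to 110 FPKM in mutant libraries, and their median log2 fold change was -0.002.

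Fgf9 (gene ID 14180, chr14:58072686-58112720, plus strand) encodes the Sertoli cell ligand. It was at 2.46, 2.33 and 2.93 FPKM in wild-type and 2.41, 2.85, 1.99 and 1.80 FPKM in mutant libraries. Mutant replicates 3 and 4 were below every wild-type library and mutant replicates 1 and 2 were not. The log2 fold change of -0.16 ± 0.15 (SE, limma adjusted p = 0.603) had an interval from 0.706-fold to 1.13-fold, and Fgf9 was the only ligand with a negative value. Without wild-type replicate 3 it was -0.081.

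Fgfr2 (gene ID 14183, chr7:130162451-130266808, minus strand), the receptor for FGF9 in Sertoli cells, was at 18.7, 14.9 and 17.0 FPKM in wild-type and 18.4, 20.8, 18.2 and 18.2 FPKM in mutant libraries. Only wild-type replicate 1 reached the mutant range. Fgfr2 had a log2 fold change of 0.16 ± 0.090 (SE, limma adjusted p = 0.389), and 0.17 without wild-type replicate 3. Sertoli cell markers other than Fgf9, 11 genes, had a median of 0.13 for this value, and their summed FPKM ran from 413 to 636 in wild-type and 528 to 689 in mutant libraries. Whether they bear on the Fgfr2 level was not tested.

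Fgfr3 (gene ID 14184, chr5:33721724-33737068, plus strand), a receptor found on fetal germ cells, was at 5.56, 4.24 and 8.27 FPKM in wild-type and 6.02, 5.72, 4.99 and 5.06 FPKM in mutant libraries. The lowest and the highest library were both wild-type. Fgfr3 had a log2 fold change of -0.090 ± 0.19 (SE, limma adjusted p = 0.84), and it turned to 0.15 without wild-type replicate 3 (adjusted p = 0.554). Fgfr3 was the one gene of the 9 matched with the letters TGGGGGGT, the core of the element that GLIS proteins bind, in its promoter window, and it held them at both of its annotated start sites. The core is in capitals in the stretches below, as its complement at the first start site.
Fgfr3, first start site (chr5:33721732-33721759, plus strand): tggcgggagcACCCCCCAacccccgccc
Fgfr3, second start site (chr5:33722328-33722355, plus strand): ccggcgccggagccgggcgTGGGGGGTt
These matches lie at positions 19 and 42 after their start sites, and 1.53% of all windows held the letters on either strand. The related GLI element TGGGTGGTC occurred in 0.253% of windows and in none of the 9 matched genes. A match of letters does not show that a factor binds.

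**Figure D2:**
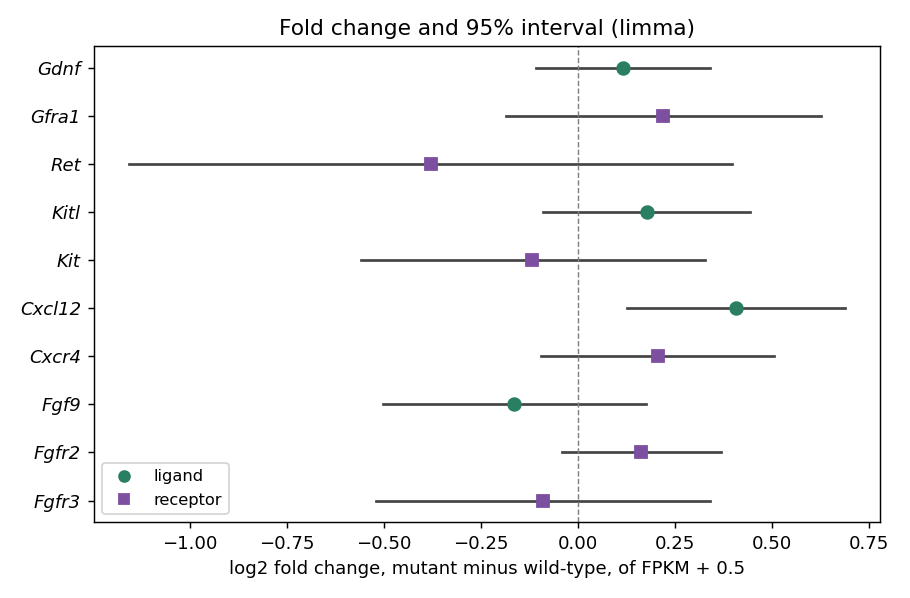
Log2 fold change, mutant minus wild-type, of FPKM + 0.5 for each gene, with circles for ligands, squares for receptors and lines for the 95% interval from limma. The interval of Cxcl12 lies above 0, from 0.13 to 0.69, and those of the other 9 genes include 0.

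The level of each ligand was next set against its receptor within the same library, as log2(ligand FPKM + 0.5) minus log2(receptor FPKM + 0.5). Apart from the added 0.5, which weighs on low genes such as Ret, this difference does not move with library scaling. Over the 6 pairs, 0 reached an exact two-sided permutation p under 0.05, whether adjusted or not. Gdnf minus Gfra1 was 1.49 ± 0.24 in wild-type and 1.38 ± 0.26 in mutant libraries (SD), a change of -0.10 (p = 0.629, exact permutation). Gdnf minus Ret was 1.65 ± 0.93 in wild-type and 2.15 ± 0.26 in mutant libraries, a change of 0.50 (exact permutation p = 0.4).

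In the KIT pair the difference was 2.64 ± 0.53 in wild-type and 2.94 ± 0.15 in mutant libraries, which corresponds to 6.24-fold and 7.65-fold more ligand than receptor (exact permutation p = 0.429). Cxcl12 exceeded Cxcr4 by 3.53 ± 0.30 in wild-type and 3.73 ± 0.37 in mutant libraries, or 11.5-fold and 13.2-fold (exact permutation p = 0.486). The higher mutant value for Cxcl12 thus stood beside a higher value for Cxcr4, and the change of the pair was 0.20. With wild-type replicate 3 left out, this change was 0.033. That of Gdnf minus Ret was 0.13 without wild-type replicate 1 (exact permutation p = 0.867) and 1.02 without wild-type replicate 3, where the exact permutation p of 0.0667 is the smallest that 2 against 4 libraries allow.

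Fgf9 was the one ligand below its receptors. Against Fgfr2 the wild-type libraries gave -2.70, -2.45 and -2.35 and the mutant libraries -2.70, -2.67, -2.91 and -3.02, so the ranges met at -2.70, and mutant replicate 2 was the one mutant library inside the wild-type range. The change was -0.33 (exact permutation p = 0.114), and it was -0.25 without wild-type replicate 3. Against Fgfr3 the change was -0.073 (exact permutation p = 0.686), and -0.23 without that library. The same omission gave -0.017 for Gdnf minus Gfra1 and 0.32 for Kitl minus Kit, which was 0.014 without wild-type replicate 1 and 0.54 without wild-type replicate 2 (exact permutation p = 1 and 0.0667).

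**Figure D3:**
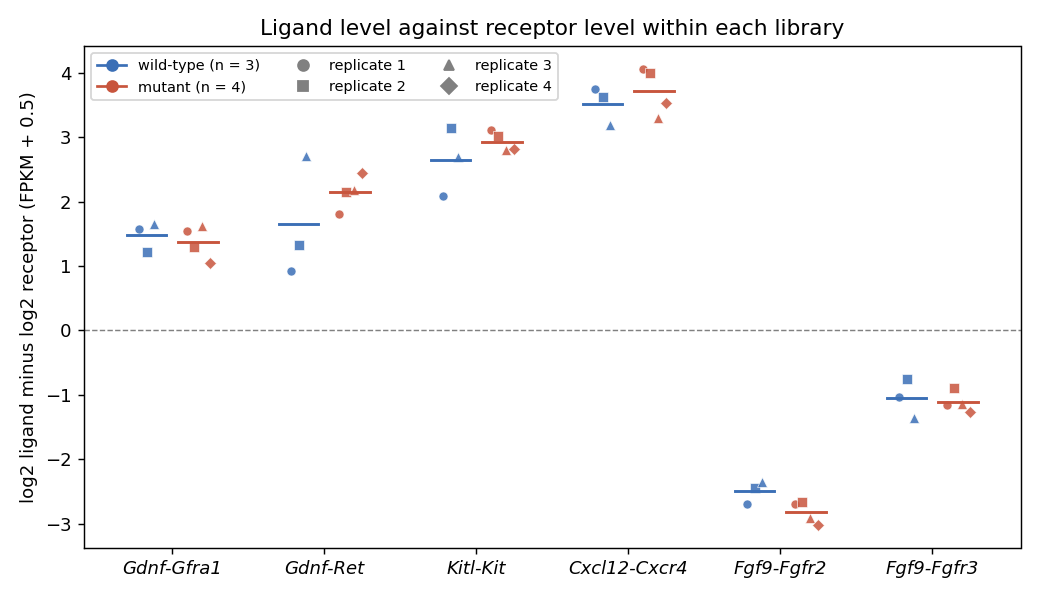
Log2 ligand minus log2 receptor level (FPKM + 0.5) of the 6 pairs in each library, with blue for 3 wild-type and red for 4 mutant libraries, shape for the replicate number and bars for group means. Values above 0 mean more ligand than receptor per length, and the groups overlap in each of the 6 pairs.

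Each gene was also expressed relative to the mean log2 level of the 18 germ cell markers in its own library. That mean was 4.29 in wild-type and 3.34 in mutant libraries, so a gene of equal level in both groups scores 0.95 on this scale, and 99.3% of all genes tested scored above 0. The smallest exact permutation p that 3 against 4 libraries allow, 0.0286, was reached by 42.2% of all genes with the mutant higher and by 0.0214% with the mutant lower. The sign and the p of a niche gene are therefore mostly those of the markers, and the values below are a description.

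Cxcl12 was 2.75 ± 0.56 in wild-type and 4.10 ± 0.22 in mutant libraries (SD), a difference of 1.35, and Fgfr2 differed by 1.11, from -0.18 ± 0.68 to 0.93 ± 0.20. Ret differed by 0.57, less than the 0.95 of an equal level. These 3 of the 10 genes were at the exact permutation p of 0.0286. Ret was at -3.85, -4.06 and -4.18 in wild-type and at -3.47, -3.37, -3.45 and -3.56 in mutant libraries. Its wild-type SD was 0.17, against 0.56 to 1.08 for the other 9 genes. This SD depends on the added 0.5, which weighs on a gene as low as Ret. Over the 3 wild-type libraries Ret and the mean of the germ cell markers both fell from replicate 1 to replicate 3. Whether germ cells set the Ret level was not tested. With a pseudocount of 0.1 the exact permutation p of Ret was 0.171.

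The other 7 genes differed by 1.06 (Gdnf), 1.12 (Kitl), 1.15 (Cxcr4), 1.17 (Gfra1), 0.78 (Fgf9), 0.83 (Kit) and 0.85 (Fgfr3), with exact permutation p from 0.0571 to 0.229. The groups overlapped in these because wild-type replicate 3 fell within the mutant range in 6 of them and above it in Fgfr3. Without replicate 3 the differences were 0.49 for Ret and 1.25 to 1.66 for the other 9 genes. Without wild-type replicate 1 those of Kitl and Fgf9 were 0.74 and 0.51, and without wild-type replicate 2 those of Kit and Fgfr3 were 0.44 and 0.51.

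**Figure D4:**
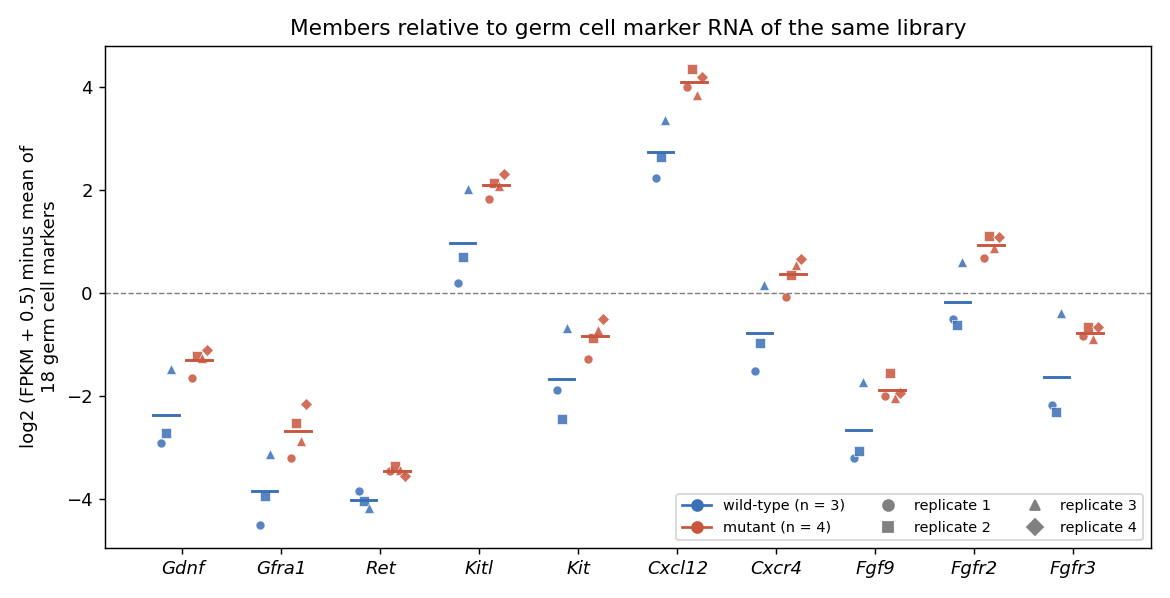
Log2(FPKM + 0.5) of each gene minus the mean of 18 germ cell markers of the same library, with blue for 3 wild-type and red for 4 mutant libraries, shape for the replicate number and bars for group means. The wild-type triangle, replicate 3, sits nearest the mutant points for 9 genes, and for Ret it is the lowest point.

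Interstitial and peritubular markers, 12 genes that include Pdgfra and Dcn, all had a higher mutant than wild-type mean (median 0.24 on the log2 scale). The mutant mean was higher for 7294 of all 13988 genes tested. Of the 12, 3 were higher at an unadjusted limma p under 0.05, against 8.21% of all genes. The summed FPKM of the 12 ran from 1380 to 1640 in wild-type and from 1620 to 1980 in mutant libraries. Relative to the mean log2 level of these markers, a measure added after the values were seen, Cxcl12 was 1.54 ± 0.082 in wild-type and 1.72 ± 0.071 in mutant libraries, a difference of 0.18 (exact permutation p = 0.0286, the smallest possible). This is less than the 0.41 of the unscaled comparison. Fgf9 was -3.88 ± 0.24 and -4.26 ± 0.14, a difference of -0.39 with the same p from the exact test. On this scale a gene of equal level scores -0.23, and this p was reached by 0.207% of all genes with the mutant higher and by 18% with the mutant lower, so the value of Fgf9 is one that many genes share. For the other 8 niche genes the exact permutation p was 0.2 or more. Without wild-type replicate 3 the differences were 0.15 and -0.26, both at an exact permutation p of 0.133.

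The libraries were made from rRNA-depleted RNA by random priming, so they also hold reads from introns. As a further readout, uniquely mapped reads on LINE, SINE and LTR elements were summed over elements that lie in the introns of 1 gene only. These reads come from the same libraries, so they add no independent embryos. Of the 10 genes, 8 had such elements with reads and 7 had a mean of at least 10 reads per library, with Fgfr3 at 6.57 and none for Cxcl12 and Cxcr4. In edgeR's quasi-likelihood test, 0.199% of 11558 genes had an adjusted p under 0.05, and 0 of the 7 did.

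Introns of Ret had 42, 27 and 5 reads in wild-type and 21, 8, 10 and 7 reads in mutant libraries. Wild-type replicates 1 and 2 were the 2 highest libraries and wild-type replicate 3 the lowest, as for Ret FPKM. The log2 fold change was -0.81 (edgeR adjusted p = 0.567), and -1.29 without wild-type replicate 3 (adjusted p = 0.112). Kit introns had 92, 40 and 89 reads in wild-type and 44, 50, 41 and 54 reads in mutant libraries, again with wild-type replicate 2 below every mutant library and the other two wild-type libraries above every one. Their log2 fold change was -0.35 (edgeR adjusted p = 0.557), and -0.17 without wild-type replicate 3.

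Among the ligands, Kitl introns had 229, 158 and 226 reads in wild-type and 171, 195, 178 and 211 reads in mutant libraries, with a log2 fold change after normalization of 0.16 (edgeR adjusted p = 0.636). Gdnf had 41 to 65 reads and a log2 fold change of 0.019, and Fgf9 had 40 to 61 reads and -0.087. For the receptors, Fgfr2 had 581 to 759 reads, the most of the 7, with 0.12, and Gfra1 had 19 to 39 reads with 0.34. The sign was that of the FPKM comparison for each of the 7 genes, while the sign for Gdnf changed under other settings.

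**Figure D5:**
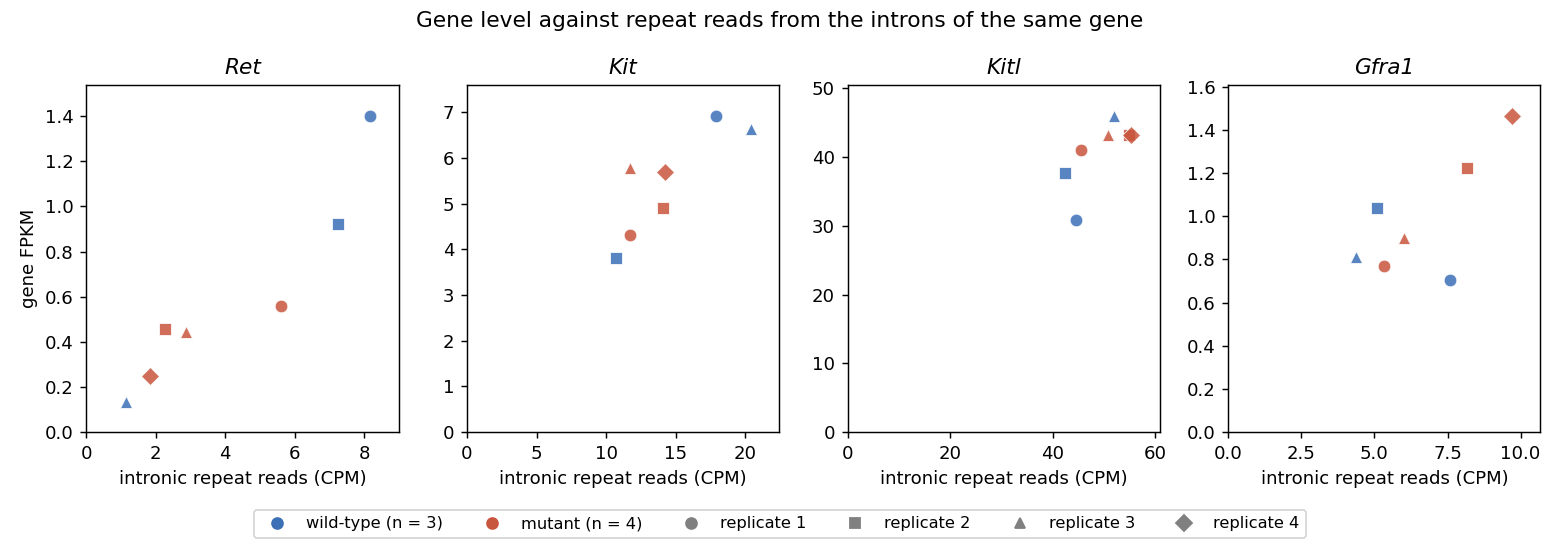
Gene FPKM against intronic repeat reads, as CPM (scaled to all reads on repeat elements, TMM), for Ret, Kit, Kitl and Gfra1, with 1 point per library, blue for wild-type, red for mutant and shape for the replicate number. Ret runs from wild-type replicate 3 at the lower left to wild-type replicate 1 at the upper right, with the mutant libraries between.

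Genes with the most similar profiles were found by the root mean square distance between log2 profiles over the 7 libraries, each centred on its own mean. For Cxcl12 these were Col16a1 at 0.042, Casq2 at 0.05 and Col6a1 at 0.057, and 1427 genes lay within 0.2. Ret was closest to Fam163a at 0.136, 2010300C02Rik at 0.148 and Art5 at 0.163, and 13 genes lay within 0.2. Fam163a, for example, was at 1.33, 0.855 and 0.255 FPKM in wild-type and 0.449, 0.547, 0.366 and 0.229 FPKM in mutant libraries. As Fam163a was picked for its likeness to Ret, its low level in wild-type replicate 3 follows from that choice.

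For Kit the closest were Snrpd3 at 0.086, Enpp3 at 0.086 and Pus1 at 0.096, and 676 genes lay within 0.2. Fgfr3 was closest to Hoxd3 at 0.094, Gpr182 at 0.098 and Acot2 at 0.099. Gfra1 was closest to the row Gm15421 at 0.081, to Rpl39 at 0.094 and to Krt19 at 0.095. The flatter profiles have many near neighbours and identify little. Within 0.2 lay 8957 genes for Gdnf (first Lyplal1, Taf12 and Arhgef5), 8743 for Fgfr2 (Tnxb, Pnmal2 and Sipa1), 5079 for Kitl (Fam151a, Dbr1 and Ttc32), 4338 for Fgf9 (AA474331, Acrbp and Frmd4b) and 3045 for Cxcr4 (Ppp4r4, Tmem258 and Atp5j2).

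The rest of each pathway was read from lists of its genes, none of which had an adjusted limma p under 0.05. Over all genes tested, 8.21% were higher and 8.79% lower in mutant libraries at an unadjusted p under 0.05, and counts below are to be read against these shares. Of the 6 other tested GDNF family ligands and receptors, 1 had a higher mutant level at an unadjusted p under 0.05 and 0 a lower one. This was Nrtn, a ligand of the GDNF family, at 6.68 ± 2.16 and 9.55 ± 0.81 FPKM (limma adjusted p = 0.214, overlapping groups). The paralogs of Gfra1 were Gfra2, the neurturin receptor, at 2.57 ± 0.63 FPKM in wild-type and 2.73 ± 0.54 in mutant libraries, and Gfra4 at 2.67 ± 0.28 and 2.17 ± 0.34 FPKM (limma adjusted p = 0.854 and 0.367). Both were above Gfra1 per length, and Gfra3 was below the filter. Among 8 tested genes that respond to GDNF and RET in other cells, 7 had a negative log2 fold change, 3 at an unadjusted p under 0.05 (8.79% of all genes), with a median of -0.20. The transcription factors Lhx1 (1.63 ± 0.68 and 0.703 ± 0.15 FPKM, limma unadjusted p = 0.00474, adjusted p = 0.178) and Sox2 (9.02 ± 5.66 and 4.27 ± 0.33 FPKM, unadjusted p = 0.0245, adjusted p = 0.237) were lower in every mutant library than in every wild-type one. The third, the ETS factor Etv4, was at 4.48 ± 0.81 and 3.30 ± 0.33 FPKM with overlapping groups (limma adjusted p = 0.214). Sox2 is also a germ cell gene and Lhx1 a mesonephric one, and the part of these cells in the values was not tested.

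Of 20 other tested genes of the KIT pathway, 3 had an unadjusted p under 0.05, all lower, against 17% of all genes in either direction, and in 5 the groups were apart with the mutant libraries lower, against 7.59% of all genes. The other two of these 5 were Pik3ca and Cbl, at limma adjusted p of 0.384 and 0.329. Pik3cd, a catalytic subunit of PI3 kinase, was at 9.94 ± 3.22 and 5.64 ± 0.58 FPKM (limma log2 fold change -0.72, adjusted p = 0.18). Mapk3, the ERK1 kinase, was at 24.0 ± 1.66 and 20.2 ± 1.49 FPKM (-0.25, limma adjusted p = 0.203), and Foxo1, a transcription factor held in check by AKT, at 3.26 ± 0.39 and 2.63 ± 0.20 FPKM (-0.26, limma adjusted p = 0.267). In the CXCL12 pathway, 1 of 9 other genes tested had an unadjusted p under 0.05, Arrb2, the beta-arrestin that ends signalling by G protein-coupled receptors, at 10.3 ± 2.06 and 6.96 ± 0.57 FPKM (-0.52, limma adjusted p = 0.174).

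None of the 6 other FGF ligands tested had an unadjusted limma p under 0.05, nor any of the paralogs Fgfr1, at 8.59 ± 1.21 and 8.83 ± 1.61 FPKM, Fgfr4, at 0.956 ± 0.30 and 1.19 ± 0.22 FPKM, and the decoy receptor Fgfrl1, at 13.0 ± 0.68 and 14.4 ± 0.86 FPKM. Of 11 FGF receptors and co-receptors other than Fgfr2 and Fgfr3, 3 had an unadjusted p under 0.05, all higher, against 8.21% of all genes. In 4, these and Fgfrl1, every mutant library was the higher, against 7.31% of all genes. The 3 are heparan sulfate proteoglycans, which hold FGF at the cell surface: Sdc1 at 61.6 ± 1.92 and 83.1 ± 9.28 FPKM, Gpc1 at 38.5 ± 3.24 and 47.2 ± 4.32 FPKM, and Gpc4 at 13.0 ± 0.19 and 15.1 ± 1.15 FPKM. Their limma log2 fold changes were 0.42, 0.29 and 0.21, with adjusted p of 0.159, 0.194 and 0.225. A list of 16 feedback targets and adaptors of FGF and other receptor tyrosine kinases had a median log2 fold change of 0.001. At an unadjusted limma p under 0.05, 1 of the 16 was higher and 3 were lower. Spred2, an inhibitor of ERK signalling, was the higher one (4.59 ± 0.41 and 5.99 ± 0.67 FPKM), and Etv4, Il17rd and Frs2 were the lower ones. Of these, Frs2, the FGF receptor adaptor, had groups that did not overlap (8.91 ± 0.44 and 7.87 ± 0.35 FPKM, limma adjusted p = 0.288).

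A wider list of 39 ligands and receptors of other niche routes had 1 gene with an unadjusted p under 0.05. This was Pdgfa, a ligand made in testis cords that acts on interstitial cells, at 20.2, 21.9 and 18.5 FPKM in wild-type and 28.1, 29.3, 26.1 and 27.7 FPKM in mutant libraries. Its groups did not overlap, with a limma log2 fold change of 0.45 ± 0.074 (SE, adjusted p = 0.112). Nrtn, Etv4, Pik3ca, Cbl, Spred2 and Il17rd were named after their values were seen.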

How the data were processed

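RNA-Seq of 7 E14.5 testis libraries (3 wild-type, 4 Glis3 mutant) was used. The authors aligned reads to mm10 with TopHat2 2.0.12 and made the deposited FPKM per RefSeq gene with Cuffnorm, library scaling included. The authors also deposited raw counts of uniquely mapped reads per RepeatMasker LINE, SINE and LTR element, made with HTSeq. Strand was not kept, so overlapping antisense reads cannot be told apart. Groups and replicate numbers came from the sample labels, and p-values measure the spread between embryos. Summed FPKM per library ran from 694243 to 1018678 and reads on repeat elements from 3454317 to 4670830. The FPKM table holds no read counts, so no counting intervals were made.

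After a filter on mean level (0.5 FPKM or more), log2(FPKM + 0.5) was compared between groups by limma 3.58.1 (trend, two-sided, R 4.3.3), and p-values were adjusted by Benjamini-Hochberg over all genes tested, with a threshold of 0.05. Fold changes on this scale understate those of low genes. Elements were placed in introns of 1 gene with Python 3.11.15 and GENCODE M21, summed, and tested with edgeR 4.0.16 (quasi-likelihood, TMM, library sizes from all repeat reads, mean of at least 10 reads). Single values were compared by exact permutation over the 35 ways to draw 3 of 7 libraries. Both fits were run on simulated data with planted changes larger than those of the niche genes. The power to find changes as small as theirs was not tested. DESeq2 1.42.0 and the other settings tried are given below. One blood marker whose symbol 2 rows share was left out.

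The genes and lists were chosen with earlier results of these data known. Other genes named are those of a list with separate groups and an unadjusted p under 0.05 (at most 5), paralogs of Gfra1 and of the FGF receptors, and the 3 nearest profiles. Of marker lists not used above, the median log2 fold change was 0.44 for 8 fetal Leydig cell genes, 0.22 for 9 macrophage genes, 0.94 for 4 mast cell genes, -0.16 for 4 mesonephric genes, -0.22 for 5 neural crest and neuron genes and 0.15 for 7 blood genes.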

Additional observations from a re-analysis of the deposited data

Results flagged for a closer look

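In the mutant group of 4, a library stood far from the other three, by Dixon's gap test, in 2 of 34 sets of values examined, and chance gives about 1 in 20. Kitl was at 41.0 FPKM in mutant replicate 1, a gap of 0.957 of the group's range, though the whole range was only 1.06-fold. Fgfr2 was at 20.8 FPKM in mutant replicate 2, a gap of 0.916 of the range, and the other three libraries lay between 18.2 and 18.4 FPKM. The wild-type group of 3 was too small for this test.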

How the results depend on the processing

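For FPKM, none of the niche genes tested passed the adjusted threshold in any setting tried. All 10 were tested except at a mean of at least 2 FPKM, where 8 were, without Gfra1 and Ret. For intronic reads, none of the 7 genes tested passed in any setting. Of these, only Gdnf, Kitl, Kit and Fgfr2 were tested at a mean of at least 50 reads. Counts over all genes moved: from 1 gene to 17 without a filter on low values, 3 with quantile normalization, 0 with the replicate block (limma, 1726 genes at an unadjusted p under 0.05), and 1 to 720 on leaving out a library, the 720 (162 higher, 558 lower) without wild-type replicate 3. Other single libraries gave 5 at most. For intronic reads, 23 genes became 34 in DESeq2, 351 without a filter, 1 with at least 50 reads, 2 with all elements inside 1 gene, 1 with the replicate block, and 1 to 135 on leaving out a library, the 135 without wild-type replicate 3. The causes were not tested. The adjusted p of Cxcl12 ran from 0.17 to 0.409.

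Signs turned for Kit without wild-type replicate 1 (0.022), Fgfr3 without wild-type replicate 3 (0.147), Gdnf minus Gfra1 with the replicate block and without mutant replicate 4 (0.005 in both), Fgf9 minus Fgfr3 without wild-type replicate 2 (0.075), and intronic Gdnf without a filter (-0.022), with the replicate block (-0.035) and without wild-type replicate 1 (-0.178), mutant replicate 3 (-0.041) or mutant replicate 4 (-0.037). On leaving out a library these ran from -0.367 to 0.022 for Kit, -0.297 to 0.147 for Fgfr3, -0.239 to 0.005 and -0.228 to 0.075 for the pairs and -0.178 to 0.151 for intronic Gdnf.

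Relative to germ cell markers, the range on leaving out a library was 1.098 to 1.655 for Cxcl12, 0.887 to 1.5 for Fgfr2 and 0.492 to 0.655 for Ret, where 6 libraries cannot give an exact p below 0.0667. With a pseudocount of 0.1 Ret was 0.543 (exact permutation p = 0.171). A choice made after seeing the data was to take 6 genes of retrotransposon silencing or RNA regulation out of the list. Ret was then 0.435 (exact permutation p = 0.0857). Gdnf (0.93), Gfra1 (1.034), Kitl (0.99) and Cxcr4 (1.02) reached the smallest exact permutation p of 0.0286. With the full list 42.2% of all genes reached this p with the mutant higher. For the shorter list this share was not computed, so these p-values are a description.

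Same-numbered libraries of the groups correlated at 0.198, -0.177 and 0.229 in their deviations from the group means. Wild-type replicates 1 and 3 correlated best with the mutant library of their own number. Wild-type replicate 2 correlated best with mutant replicate 1 (0.127). As replicate 2 did not match its number, the replicate numbers were not taken as pairs. The replicate block, fitted to the log2 fold changes and the intronic reads, changed no call of a niche gene. For the pairs it was an exact sign-flip test of 3 paired differences, which cannot give a p below 0.25. No pair could therefore be called under the block. The replicate block was not fitted to the levels relative to marker lists.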
